A study of Mus musculus with 9 samples.

Results

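This account describes 10 genes known as targets of the transcription factor p53 in cultured mouse natural killer (NK) cells: Mdm2, Ccng1, Cdkn1a, Btg2, Aen, Phlda3, Trp53inp1, Xpc, Sesn1 and Zmat3. They were taken by symbol from a gene count table of 16876 genes. All 10 were in the table and all 10 were among the 12212 genes that passed the filter on low counts. The cells, called BM-NK cells in the labels, were grown from femur marrow of C57BL/6 mice, whose age the sources used here do not give. Every group shared the same culture: 4 days in MEM-α with IL-7 at 1 ng/mL, Flt3L at 10 ng/mL, SCF at 30 ng/mL and IL-15 at 50 ng/mL, and then a further week with IL-15 at 50 ng/mL and IL-2 at 20 ng/mL. Ctrl cells (n = 3) had no further agent. TGFb cells (n = 3) were given TGF-β1 at 5 ng/mL for 3 h. SIS3, a small molecule, inhibits Smad3, a protein that, with others, carries the TGF-β signal to the nucleus. SIS3_TGFb cells (n = 3) were first held for 3 h with 10 µM SIS3, and then had the same TGF-β1 treatment. The titles of these samples name SIS3 alone, and their treatment text adds TGF-β1. No group had SIS3 alone. The sources used here name no solvent control, so effects of SIS3 and of its solvent cannot be told apart. The labels do not say whether replicates are separate mice or cultures, and p-values then measure only the spread between these libraries, which may be technical.

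p53, encoded by Trp53 in the mouse, is a transcription factor that accumulates after DNA damage and other stresses and binds paired copies of a short DNA half-site near its target genes. Its targets halt the cell cycle, repair DNA, promote cell death, limit growth signalling and, through Mdm2, return p53 itself to a low level. Many of them also respond to other transcription factors, so their RNA levels do not measure p53 activity on their own.

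The stretch of DNA before the transcription start is shown for members where the p53 half-site could be read. RefSeq promoter windows of build GRCm38.p6 matched 7 of the 10 members, in 10 windows, and the 250 bases before each start were searched on both strands. The p53 half-site is a motif of 10 bases with 3 purines, a core of C, A or T, A or T, and G, and 3 pyrimidines, and it reads the same on both strands. Exact half-sites were found in 5 of the 10 windows (50%), against 7.13% of all 32851 promoter windows of the same length. Of the 38 windows of other p53 target genes, 15.8% held one. Pairs of half-sites with at most 13 bases between them and at most 2 mismatches in all were in 2 of the 10 windows (20%), against 1.75% of all windows. These genes are listed because they are p53 targets, so the matches describe the list, and no binding was measured. Of the Cdkn1a windows, chr17:29093519-29093768, ahead of a start inside the annotated gene, held no half-site. The other, chr17:29090729-29090978 on the plus strand, is shown in full. It holds 2 half-sites that adjoin and a further one ahead of them. Capitals mark the half-sites, of which the one nearest the start has 1 mismatch.
Cdkn1a: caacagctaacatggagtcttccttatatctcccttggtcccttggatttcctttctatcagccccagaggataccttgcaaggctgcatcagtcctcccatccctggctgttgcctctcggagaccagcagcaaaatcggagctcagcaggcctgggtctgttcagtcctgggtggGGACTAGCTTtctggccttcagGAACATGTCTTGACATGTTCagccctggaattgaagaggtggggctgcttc

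For 5 other members a half-site is shown with 10 bases on each side, written along the strand of the gene, so that the letters can be compared. Capitals again mark the half-site. The Mdm2 window is chr10:117710925-117710954 (minus strand), the Ccng1 window chr11:40755452-40755481 (minus strand), the Aen window chr7:78895927-78895956 (plus strand), the Sesn1 window chr10:41887256-41887285 (plus strand) and the Btg2 window chr1:134079319-134079348 (minus strand). The Btg2 half-site has 1 mismatch and the other 4 have none. The bases searched for Mdm2 also held a further half-site, chr10:117710974-117710983 with 1 mismatch, which is not shown. The Aen window covers the first bases of the annotated gene and lies ahead of a second start, and the Sesn1 window lies inside the annotated gene ahead of an internal start. For Phlda3 these letters were not in the window searched.
Mdm2: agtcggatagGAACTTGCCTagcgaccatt
Ccng1: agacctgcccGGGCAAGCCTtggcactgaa
Aen: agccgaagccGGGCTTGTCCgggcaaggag
Sesn1: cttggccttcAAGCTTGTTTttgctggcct
Btg2: cgggagtccgGTGCTTGTTCccaataatga

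Libraries held 15714973 to 16718673 expected counts, which are estimated reads per gene. The first principal component, with 53.6% of the variance, separated the groups, and the second (19.2%) set TGFb replicate 3, at -30.4, apart from the other TGFb libraries at -15.2 and -17.7. All 12 NK cell markers passed the filter. Their summed level was 20500 to 21600 CPM (counts relative to the library's TMM-scaled total) in Ctrl, 15700 to 17100 in TGFb and 17000 to 17200 in SIS3_TGFb. Gzmb, at 8280, 5620 and 7350 CPM in the same order, and Prf1, at 6240, 4870 and 4620, were the largest parts of that sum. Eomes averaged 544, 517 and 367 CPM, and Tbx21 21.2, 23.2 and 27.8. Macrophage and monocyte markers (11 of 11 tested) summed to 1170 to 1480, 883 to 1230 and 922 to 1430 CPM in the same order. Dendritic cell markers (5 of 9 tested), nearly all Cd74 and H2-Ab1, summed to 452 to 627, 360 to 573 and 401 to 709. On that list Itgax averaged 18.4 CPM in Ctrl, and Flt3, Xcr1 and Clec9a 0.165, 1.4 and 0.617. Over Ctrl, TGFb and SIS3_TGFb, Zbtb46 averaged 0.907, 2.86 and 6.13 CPM. Xcr1, at 1.4, 0.938 and 0.525, and Clec9a, at 0.617, 0.436 and 0.156, went the other way. Mast cell and basophil markers (8 of 8 tested) summed to 608 to 634, 573 to 639 and 553 to 650. That sum joins opposite changes. Kit averaged 177, 232 and 261 CPM, while every other gene on the list averaged lower in both treated groups than in Ctrl. Mcpt8, the largest of those, averaged 249, 217 and 185 CPM. Neutrophil markers (3 of 8 tested), nearly all Ctsg, summed to 258 to 298, 234 to 248 and 220 to 233 CPM, with no overlap between groups. T cell markers (8 of 9 tested), nearly all Thy1, which NK cells can also express, summed to 1430 to 1560, 1540 to 1680 and 1290 to 1370 CPM, and SIS3_TGFb lay below both other groups. Cd3e, which defines T cells, averaged 1.88, 1.51 and 1.36 CPM. No B cell marker passed the filter. These are bulk libraries, in which fewer cells of a type and less RNA per cell cannot be told apart, and the part of these markers in the members' results was not tested.

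The members differed widely in level. Levels between genes are compared as CPM per kilobase of exon, which assumes that all annotated exons are used. In Ctrl, Ccng1 stood highest at 263 ± 2.77 CPM per kb (SD, n = 3 here and throughout), followed by Mdm2 at 94.8 ± 2.79, Cdkn1a at 84.1 ± 2.38 and Btg2 at 59.6 ± 2.03. A lower tier held Trp53inp1 at 17.1 ± 0.876, Phlda3 at 12.96 ± 0.286, Aen at 9.85 ± 0.205 and Sesn1 at 9.33 ± 0.648, the last pair within their SDs of each other. Zmat3 at 3.94 ± 0.308 and Xpc at 3.47 ± 0.209 were lowest and also within their SDs. The order shifted with treatment. In SIS3_TGFb, Cdkn1a (115 ± 2.79 CPM per kb) stood above Mdm2 (97.1 ± 1.11), and Xpc (8.19 ± 0.488) above Zmat3 (4.21 ± 0.227). Summed over the 10 genes, the level was 2156 ± 22 CPM in Ctrl, 2350 ± 4.63 in TGFb and 2503 ± 44.2 in SIS3_TGFb, and Ccng1 alone made up 42.8%, 40.2% and 36.8% of it.

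**Figure D1:**
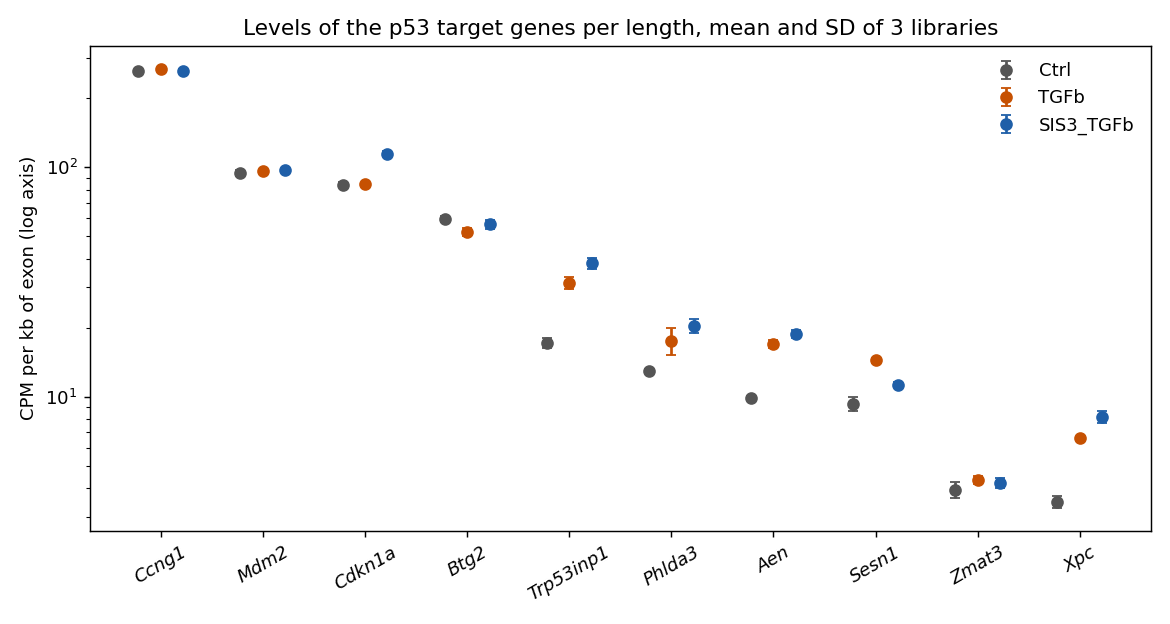
Level of each member in CPM per kilobase of exon (log axis) in Ctrl, TGFb and SIS3_TGFb, as mean and SD of 3 libraries. Ccng1 is highest in all 3 groups, and Cdkn1a passes Mdm2 in SIS3_TGFb.

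Taken over the list, 5 of the 10 members rose and 1 fell in TGFb against Ctrl at an adjusted p below 0.05 (edgeR's quasi-likelihood test, Benjamini-Hochberg over all genes tested), when 34.3% of all genes tested changed (17.9% rose, 16.4% fell). Xpc, Trp53inp1, Aen, Sesn1 and Phlda3 rose and Btg2 fell. In SIS3_TGFb against TGFb, 5 rose and 1 fell, when 41.8% of all genes changed (21.2% rose, 20.6% fell). Here Cdkn1a, Xpc, Trp53inp1, Phlda3 and Aen rose and Sesn1 fell, and 3 rose with DESeq2 or when TGFb replicate 2 was left out. In SIS3_TGFb against Ctrl, 6 rose and 0 fell, when 53.9% of all genes changed (29% rose, 24.9% fell), and with upper-quartile scaling 6 rose and 1, Btg2, fell by 0.11. Mdm2, Ccng1 and Zmat3 passed in none of the 3 with TMM scaling and all 9 libraries.

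The median log2 difference of the members was 0.287 in TGFb against Ctrl (-0.004 for all genes), 0.129 in SIS3_TGFb against TGFb (0.012) and 0.361 in SIS3_TGFb against Ctrl (0.02). Libraries of the 2 groups did not overlap for 7 members in TGFb against Ctrl, 6 higher and 1 lower, against 45% of all genes (22.9% higher, 22.1% lower). In SIS3_TGFb against TGFb that held for 4 members higher and 1 lower, against 51.4% of all genes (26.5% higher, 24.9% lower). In SIS3_TGFb against Ctrl it held for 6 members, all higher, against 61.1% of all genes (32.6% higher, 28.4% lower). The comparisons share libraries, so they are not independent of each other.

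Mdm2 and Ccng1 act back on p53. Mdm2 is the ubiquitin ligase that binds p53 and marks it for degradation, and Ccng1, cyclin G1, recruits a phosphatase that acts on Mdm2. Neither passed the test in any comparison with TMM scaling. Mdm2 (chromosome 10, 117688875 to 117710758) measured 473.6, 498 and 473.6 CPM in the Ctrl libraries, 493, 495 and 479.9 in TGFb and 495, 498 and 487 in SIS3_TGFb, so the 3 groups overlapped. Its log2 difference was 0.022 (95% interval -0.05 to 0.094, edgeR adjusted p = 0.663) in TGFb against Ctrl and 0.012 (-0.06 to 0.084, 0.802) in SIS3_TGFb against TGFb. Without scaling factors, under which 71.1% of all changed genes rose in SIS3_TGFb against TGFb in place of 50.6%, Mdm2 passed there (0.095, adjusted p = 0.0319) and against Ctrl (adjusted p = 0.026). Ccng1 (chromosome 11, 40748552 to 40755309) measured 916, 918 and 934 CPM in Ctrl, 938, 948 and 951 in TGFb and 943, 910.2 and 911 in SIS3_TGFb. All TGFb libraries lay above all Ctrl libraries, but the log2 difference of 0.036 (-0.032 to 0.104) did not pass, with an edgeR adjusted p of 0.423.

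Cdkn1a and Btg2 restrain the cell cycle. Cdkn1a encodes p21, an inhibitor of cyclin-dependent kinases and the best known p53 target, and Btg2 is an antiproliferative factor that also promotes removal of poly-A tails. Cdkn1a (chromosome 17, 29090979 to 29100722), the gene with the adjoining half-sites shown above, was level between Ctrl at 289.5, 306 and 301 CPM and TGFb at 296, 299 and 303. It then stood at 413, 413 and 395.5 in SIS3_TGFb, above every other library. The log2 difference was 0.0024 (-0.072 to 0.077, edgeR adjusted p = 0.969) for TGFb against Ctrl. In SIS3_TGFb it rose by 0.44 (SE 0.035) over TGFb, with an edgeR adjusted p of 9.06e-08, and by 0.45 (SE 0.035) over Ctrl, with an edgeR adjusted p of 2.65e-08. Its exons share 273 of 3553 bases (7.68%) with an antisense gene, and since the labels do not state strand marking, reads there cannot be assigned to either.

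Btg2 (chromosome 1, 134074865 to 134079155) went the other way after TGF-β1. It measured 169, 158 and 163 CPM in Ctrl, 142, 139 and 149 in TGFb and 161, 157 and 147 in SIS3_TGFb. The TGFb libraries lay below all Ctrl libraries, and SIS3_TGFb overlapped both other groups. Btg2 fell by 0.19 on the log2 scale (SE 0.043, edgeR adjusted p = 0.0028) in TGFb against Ctrl. In SIS3_TGFb against TGFb its log2 difference was 0.11 (0.019 to 0.203), just short of the threshold at an edgeR adjusted p of 0.0503, and it passed when TGFb replicate 3 was left out (0.14, adjusted p = 0.023) and when SIS3_TGFb replicate 3 was (0.15, adjusted p = 0.0142). It also passed with upper-quartile scaling (adjusted p = 0.036) and with none (0.195, adjusted p = 0.000905).

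**Figure D2:**
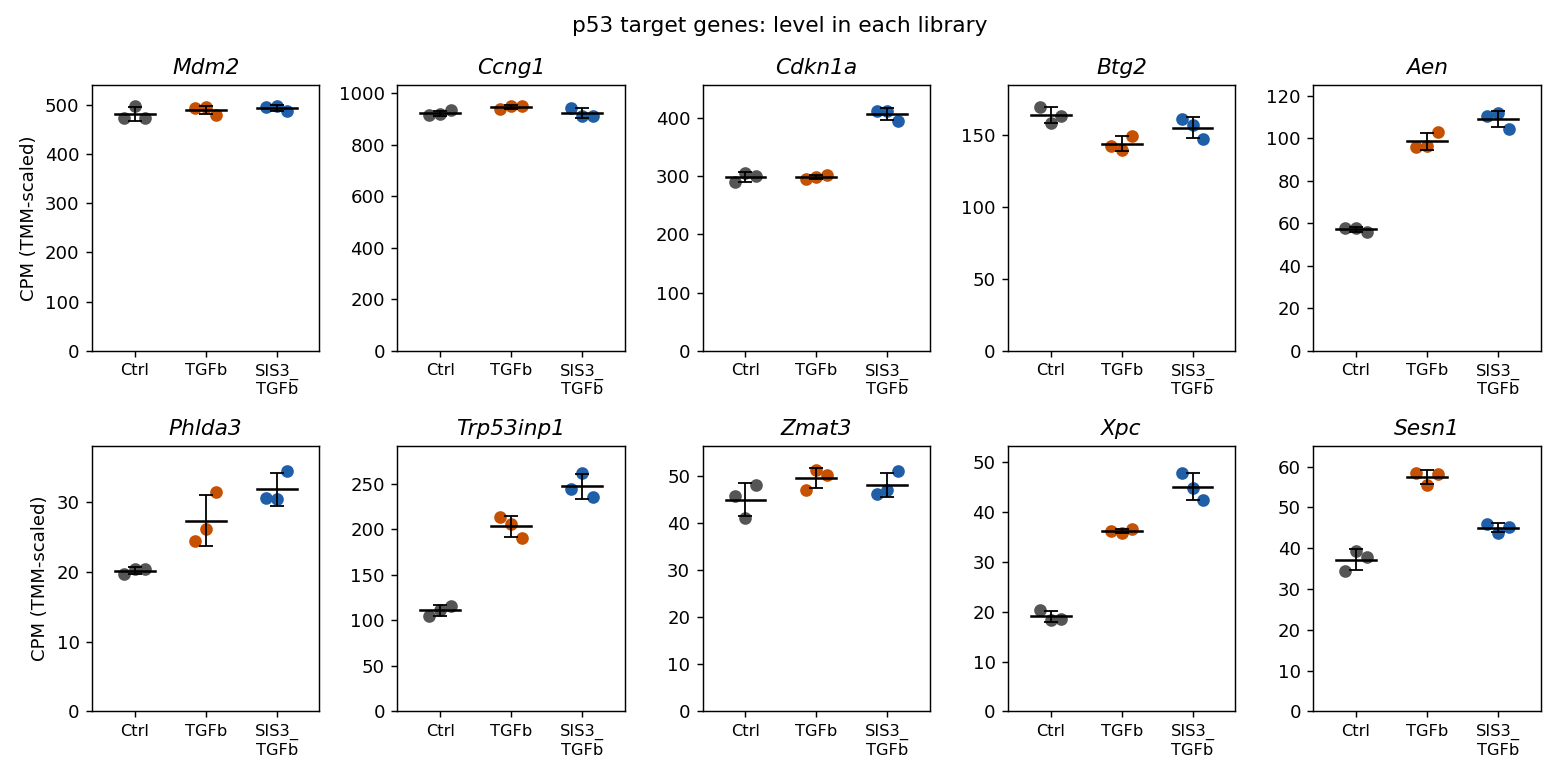
CPM of each member in each of the 9 libraries, 1 panel a gene, with points for libraries grouped as Ctrl, TGFb and SIS3_TGFb. Cdkn1a is high in SIS3_TGFb alone, Aen, Xpc and Trp53inp1 are higher in both treated groups, and Sesn1 is highest in TGFb.

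Aen, Phlda3 and Trp53inp1 are linked to cell death and survival signalling. Aen is a nuclease that acts in apoptosis, Phlda3 is a PH-domain protein that competes with the kinase Akt at the membrane, and Trp53inp1 is a nuclear protein that promotes p53 phosphorylation and autophagy. All 3 rose in TGFb against Ctrl. Trp53inp1 (chromosome 4, 11156441 to 11174379) measured 105, 112 and 116 CPM in Ctrl, 214, 205.5 and 190.4 in TGFb and 245, 262 and 235 in SIS3_TGFb, with no overlap between groups. It rose by 0.87 on the log2 scale (SE 0.053, edgeR adjusted p = 2.09e-09) in TGFb against Ctrl and by a further 0.28 (SE 0.05, edgeR adjusted p = 0.000338) in SIS3_TGFb against TGFb.

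Aen (chromosome 7, 78895927 to 78911209) measured 57.7, 57.9 and 55.7 CPM in Ctrl, 96.0, 96.4 and 103 in TGFb and 110.5, 111.9 and 104.5 in SIS3_TGFb. The 3 groups did not overlap, though the highest TGFb and lowest SIS3_TGFb libraries lay close. It rose by 0.79 (SE 0.044, edgeR adjusted p = 9.76e-10) in TGFb against Ctrl. The further log2 rise of 0.15 (SE 0.042, edgeR adjusted p = 0.0106) in SIS3_TGFb did not pass with DESeq2 (adjusted p = 0.0516), or when replicate 2 of TGFb (0.0538) or of SIS3_TGFb (0.0571) was left out.

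Phlda3 (chromosome 1, 135766085 to 135769134) was the most variable member in the treated groups. Its coefficient of variation was 13.3% in TGFb and 7.35% in SIS3_TGFb. In Ctrl it was 2.21%, below the 7.82% of Zmat3. It measured 19.7, 20.5 and 20.4 CPM in Ctrl, 24.4, 26.2 and 31.4 in TGFb and 30.6, 30.4 and 34.5 in SIS3_TGFb, where the third value of each treated group is replicate 3. The treated libraries all lay above Ctrl, and TGFb and SIS3_TGFb overlapped. In the same replicate 3 libraries, summed macrophage and monocyte markers were the lowest of TGFb, at 883 CPM, and the highest of SIS3_TGFb, at 1430 CPM. Phlda3 rose by 0.43 on the log2 scale (SE 0.088, edgeR adjusted p = 0.00105) in TGFb against Ctrl, and by 0.32 (adjusted p = 0.00353) without TGFb replicate 3. Its log2 rise of 0.22 (SE 0.083, edgeR adjusted p = 0.0409) in SIS3_TGFb against TGFb was lost in 10 of 17 alternatives. Leaving out TGFb replicate 1 gave 0.15 (adjusted p = 0.192) and leaving out SIS3_TGFb replicate 3 gave 0.16 (0.165), and DESeq2 gave an adjusted p of 0.103.

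Xpc, Sesn1 and Zmat3 serve repair, stress defence and RNA control. Xpc detects DNA damage at the start of nucleotide excision repair. Sesn1 is a sestrin that restrains mTORC1 and oxidative stress, and Zmat3 is a zinc finger protein that binds RNA. Xpc (chromosome 6, 91489305 to 91515888) measured 20.4, 18.2 and 18.6 CPM in Ctrl, 36.2, 35.8 and 36.5 in TGFb and 47.8, 44.8 and 42.4 in SIS3_TGFb, with no overlap between groups. It rose by 0.93 (SE 0.065, edgeR adjusted p = 1.26e-08) in TGFb against Ctrl and by a further 0.31 (SE 0.058, edgeR adjusted p = 0.000487) in SIS3_TGFb. Of the 10 members Xpc had the largest log2 rise in TGFb, at percentile 96.3 of all genes tested, with Trp53inp1 at 95.9 and Aen at 95.2.

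Sesn1 (chromosome 10, 41810574 to 41908436) rose with TGF-β1 and stood lower where SIS3 came first. It measured 34.3, 39.4 and 37.7 CPM in Ctrl, 58.5, 55.5 and 58.2 in TGFb and 45.9, 43.8 and 45.3 in SIS3_TGFb. The 3 groups were separate, with SIS3_TGFb between the others. Sesn1 rose by 0.63 (SE 0.055, edgeR adjusted p = 1.77e-07) in TGFb against Ctrl and fell by 0.35 (SE 0.053, edgeR adjusted p = 8.43e-05) in SIS3_TGFb against TGFb. It was the one member that fell in that comparison, and it remained 0.28 above Ctrl (SE 0.056, edgeR adjusted p = 0.000578). Zmat3 (chromosome 3, 32334792 to 32365665) measured 41.2 to 48.1 CPM in Ctrl, 47.2 to 51.3 in TGFb and 46.2 to 51.1 in SIS3_TGFb, and the groups overlapped. Its log2 difference in TGFb against Ctrl was 0.14 (0.007 to 0.273, edgeR adjusted p = 0.0975), and without Ctrl replicate 3 it was 0.19 (adjusted p = 0.0468).

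**Figure D3:**
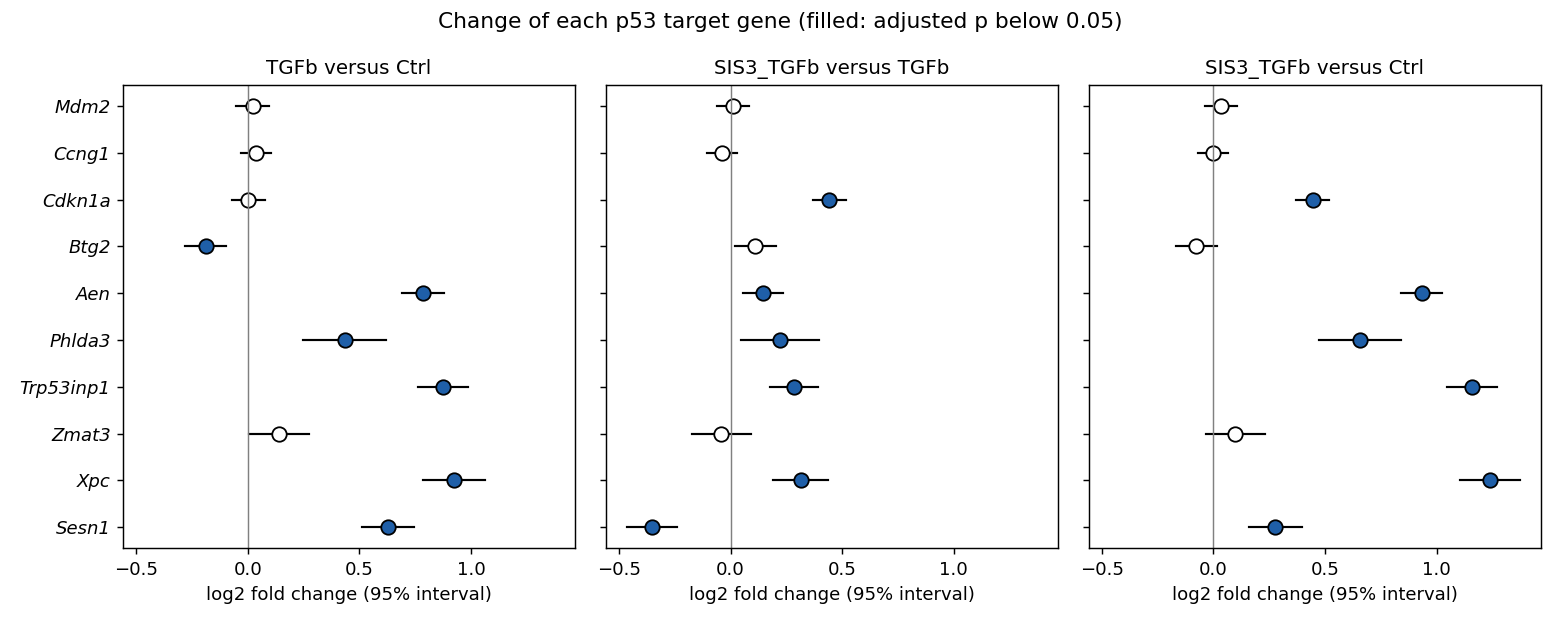
Log2 difference of each member with its 95% interval in the 3 comparisons. Xpc, Trp53inp1 and Aen lie furthest right in TGFb against Ctrl, Cdkn1a in SIS3_TGFb against TGFb, where Sesn1 lies furthest left.

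Levels of the members over the 9 libraries are set beside other genes as a description. The libraries fall into 3 groups, so a correlation mostly reflects the group means. Aen and Xpc were the most alike pair of members (r = 0.99), followed by Trp53inp1 with Xpc (0.982). Btg2 and Sesn1 ran opposite (-0.869), while r was -0.044 for Cdkn1a and Sesn1. Among 10479 other genes, the closest to Cdkn1a were Tbpl1 (0.996) and Inpp5a (0.995), and to Sesn1 Mylip (0.989) and Aplp2 (0.989).

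Trp53 itself (chromosome 11, 69580348 to 69591873) was not higher in the treated groups. It measured 146.3 ± 2.07 CPM in Ctrl, 138 ± 0.966 in TGFb and 120.5 ± 2.51 in SIS3_TGFb. The log2 difference of -0.086 (SE 0.034) in TGFb against Ctrl did not pass (edgeR adjusted p = 0.062), though it did with upper-quartile scaling (-0.13, adjusted p = 0.00932) and with none (-0.11, 0.0264). Trp53 fell by 0.19 (SE 0.034, edgeR adjusted p = 0.000292) in SIS3_TGFb against TGFb and by 0.28 (SE 0.034, edgeR adjusted p = 3.86e-06) against Ctrl. p53 is regulated largely through its protein, which was not measured. Mdm4, a relative of Mdm2 that holds p53 inactive, measured 161 ± 3.01, 173 ± 9.55 and 175 ± 3.4 CPM. It rose by 0.12 (edgeR adjusted p = 0.0242) in SIS3_TGFb against Ctrl, a call that was lost in 6 alternatives.

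Of 25 regulators of p53, 3 rose and 5 fell in TGFb against Ctrl (32%, against 34.3% of all genes), a split of 2 and 7 with upper-quartile scaling and of 3 and 2 when Ctrl replicate 3 or TGFb replicate 2 was left out. In SIS3_TGFb against TGFb 6 rose and 6 fell (48%, against 41.8%), a split of 8 and 4 with no scaling. Usp7, a protease that removes ubiquitin from Mdm2 and p53, rose by 0.37 (SE 0.043, edgeR adjusted p = 4.09e-06) with TGF-β1 and fell by 0.42 (SE 0.043, edgeR adjusted p = 1.41e-06) in SIS3_TGFb against TGFb. Ppm1d, a phosphatase that reverses p53 activation, did the opposite: it fell by 0.31 (SE 0.069, adjusted p = 0.0021) and then rose by 0.49 (SE 0.067, adjusted p = 3.31e-05). Rchy1, another ubiquitin ligase for p53, rose in both, by 0.23 (adjusted p = 0.00226) and 0.49 (adjusted p = 1.28e-06).

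Of 36 other p53 target genes, 11 rose and 8 fell in TGFb against Ctrl (52.8%, against 34.3% of all genes), with a median log2 difference of -0.026. The falls numbered 5 when Ctrl replicate 3 or TGFb replicate 3 was left out. In SIS3_TGFb against TGFb 10 rose and 7 fell (47.2%, near the 41.8% of all genes), with a median of 0.098, and 13 rose and 4 fell with no scaling. Against Ctrl, 16 rose and 8 fell (66.7%, against 53.9% of all genes), with a median of 0.144. Ddit4 and Sesn2, which restrain mTORC1 and are also induced by other stress pathways, rose in both: Ddit4 from 61.1 to 112 and 172 CPM and Sesn2 from 55.3 to 84.9 and 162 CPM. Sesn2, a relative of Sesn1, rose by 0.93 on the log2 scale (SE 0.064, edgeR adjusted p = 2.26e-08) in SIS3_TGFb against TGFb, where Sesn1 fell. Bbc3, which encodes the pro-apoptotic protein PUMA, rose by 0.41 (SE 0.066, adjusted p = 0.000143) and then 0.83 (SE 0.06, adjusted p = 4.11e-08). Ptp4a3, a phosphatase, fell in both, from 194 to 167 and 104 CPM.

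The 20 genes that p53 is known to lower through p21 and the DREAM repressor complex, mostly genes of cell division, showed a split between the treatments. Chek1 is on this list and also among the regulators of p53 above, so it is counted in both. In TGFb against Ctrl 15 fell and 1 rose (80%, against 34.3% of all genes), with a median log2 difference of -0.325. When Ctrl replicate 3 or TGFb replicate 3 was left out, 10 fell and 1 rose. In SIS3_TGFb against TGFb 14 rose and 2 fell (80%, against 41.8%), with a median of 0.303, and 9 rose when SIS3_TGFb replicate 3 was left out. In SIS3_TGFb against Ctrl 2 rose and 2 fell (20%, against 53.9%), and 1 rose and 4 fell when SIS3_TGFb replicate 3 was left out. Cdkn1a, which encodes p21, was level in TGFb against Ctrl (log2 difference 0.0024, edgeR adjusted p = 0.969), where most of the 20 fell. It rose by 0.44 (edgeR adjusted p = 9.06e-08) in SIS3_TGFb against TGFb, where most of them rose. Whether p53 or p21 had a part in these changes was not tested. Top2a, a topoisomerase needed to separate chromosomes, measured 83.1 CPM in Ctrl, 66.4 in TGFb and 83.6 in SIS3_TGFb. Ccnb1, the mitotic cyclin B1, fell by 0.54 (SE 0.098, edgeR adjusted p = 0.00039) and then rose by 0.36 (SE 0.099, adjusted p = 0.00864). The exception with TGF-β1 was Cdc25a, a phosphatase that activates cyclin-dependent kinases, which rose by 1.00 (SE 0.066, adjusted p = 5.38e-09).

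**Figure D4:**
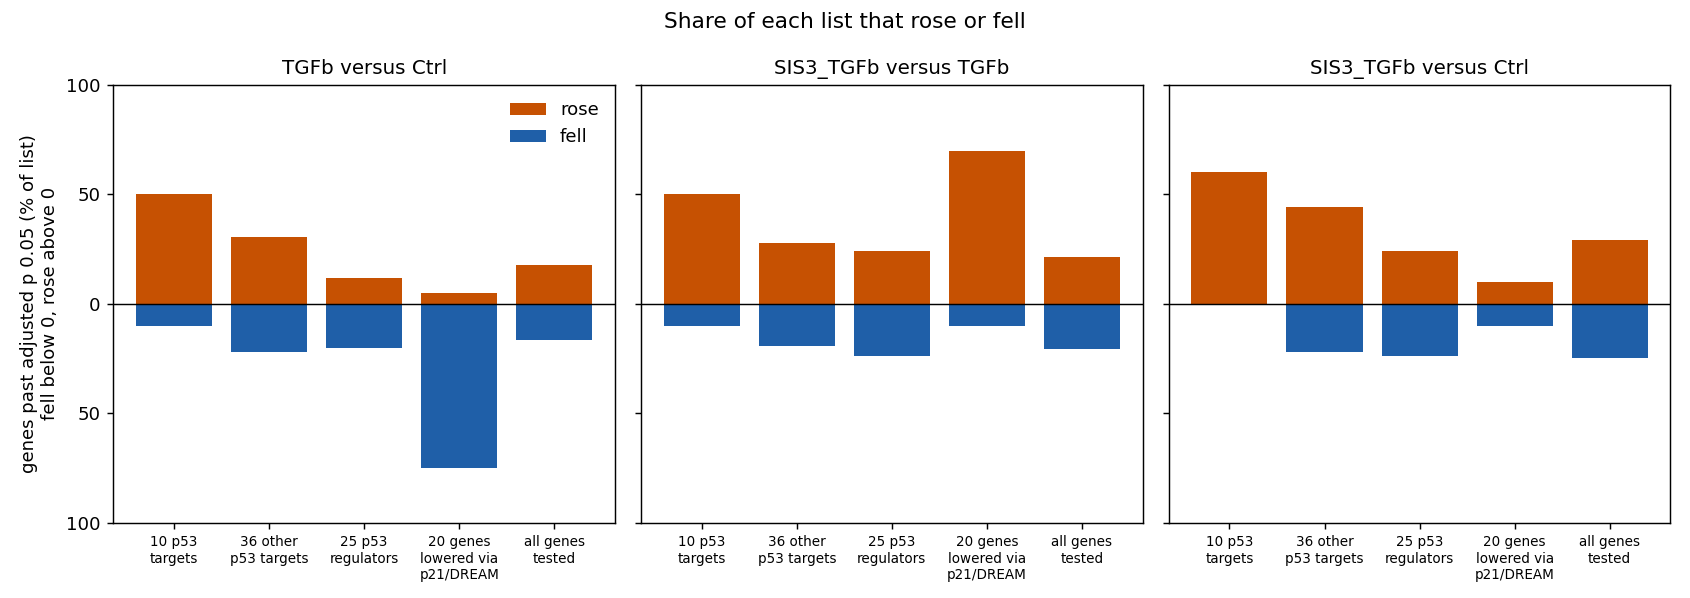
Share of each gene list that rose (up) or fell (down) in the 3 comparisons, in percent, with all 12212 genes tested as background. The p21 and DREAM list has 15 of 20 genes falling in TGFb against Ctrl and 14 of 20 rising in SIS3_TGFb against TGFb.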

How the data were processed

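A single table, as the authors deposited it, gives expected counts (reads estimated for each gene, unscaled) for 9 poly-A libraries read as 100 bp pairs from 1 µg RNA. The unit was read from the values, since 10.2% to 11.1% of them are not whole. Tools listed in the submitters' processing notes are RSEM, Bowtie2, HISAT2, StringTie, Cufflinks and DESeq2, and builds GRCm38 and mm10. Their roles and versions are not stated there. Counts were rounded, filtered with filterByExpr (minimum count 10, minimum total 15), scaled by TMM and fitted for all 9 libraries by the quasi-likelihood test of edgeR 4.0.16 in R 4.3.3. Two-sided p-values had Benjamini-Hochberg adjustment over 12212 genes, with a threshold of 0.05 and no minimum fold. The SE is the log2 change over the square root of F. On simulated data of TGFb against Ctrl with 200 of 12212 genes changed, the test recovered 52% of genes changed 1.25-fold and 96% at 1.5-fold. Alternatives used limma 3.58.1 and DESeq2 1.42.0. Members and lists were chosen with earlier results of these data known. Named genes are the 10 members, Trp53, Mdm4, up to 4 genes of each list with the smallest p per comparison, and the 2 genes most alike to a member among genes whose mean log2 CPM was 1 or more.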

Additional observations from a re-analysis of the deposited data

How the results depend on the processing

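Log2 differences of named genes and counts of changed genes were recomputed under 17 alternatives, 8 of processing and 9 that left out 1 library. Medians of lists, counts of groups that do not overlap, levels per kb, correlations and promoter counts were not. The alternatives for the p21 and DREAM list and for genes named from the lists were chosen after seeing the data. No value that had passed changed sign. Of the counts of changed genes, 252 values stayed within 1.5 times the main count and 3 did not. The regulators of p53 changed in TGFb against Ctrl numbered 8 and ranged from 5 to 8 when 1 library was left out, with 5 without Ctrl replicate 3 and 5 without TGFb replicate 2. In SIS3_TGFb against Ctrl they numbered 12 (48%, against 53.9% of all genes), 6 up and 6 down. With DESeq2 they numbered 7, 2 up and 5 down, when 5705 of all genes changed in place of 6585. Members changed in SIS3_TGFb against TGFb ranged from 4 with DESeq2, when 4125 genes changed, to 8 with no scaling (7 up), when 5191 did. With no scaling Mdm2 passed there at 0.095 (edgeR adjusted p = 0.0319). Without scaling, 71.1% of all changed genes rose in that comparison, against 50.6% with TMM, and upper-quartile scaling gave 41.3% against 52.2% in TGFb against Ctrl. Same-numbered libraries did not deviate together (r from -0.147 to 0.126 in 9 pairs). With a replicate block, 3942, 4803 and 6346 genes changed, against 4190, 5104 and 6585, and 6, 6 and 6 members. In simulated data over 12212 genes, the test recovered 52% of genes given the smallest change in TGFb against Ctrl. The share was 58% in SIS3_TGFb against TGFb. Only 200 genes were changed there, while 4190 and 5104 passed in the data, so these shares do not measure recovery of the members. Among the members, Btg2 passed at a log2 difference of -0.19 (SE 0.043) in TGFb against Ctrl. How often a small change of a member is found was not tested.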
